A study of Mus musculus with 12 samples.

Results

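The genes described here encode the machinery that stores, docks, fuses and recovers synaptic vesicles in the presynaptic terminal. They are 33 named genes, chosen by name and function, of 18193 genes measured with a probe set of their own. All 33 had such a probe set. Where several probe sets were paired with a gene and no other, the one brightest on average was taken. Values are log2 signals, so that a difference of 1 is a doubling of signal.

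RNA was taken from the striatum of 12 mice of the C57BL/6 strain and hybridised to Affymetrix mouse expression arrays, 1 per animal. The mutant mice were homozygous knock-ins (HdhQ92/Q92, here Q92) that carry exon 1 of the human Huntington's disease gene with 92 CAG repeats inside the mouse gene, and the controls were wild type. The 4 groups of 3 mice were wild type at 3 months (100 to 103 days old), Q92 at 3 months (100 to 103 days), wild type at 18 months (596 to 604 days) and Q92 at 18 months (567 to 596 days). Each mouse had its own animal number, so the replicates are separate animals. Both sexes were present in every group, with 1 female of 3 mice in the young wild-type group and 2 of 3 in each of the others.

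Transmitter release begins when calcium enters a terminal and binds a synaptotagmin on a docked vesicle. The vesicle SNARE synaptobrevin (Vamp genes) then zips together with syntaxin (Stx1a) and Snap25 on the plasma membrane, with complexin clamped on the complex, and the membranes fuse. Munc13 (Unc13 genes) and Rim proteins prepare vesicles for release at the active zone, Nsf and its adaptor take spent SNARE complexes apart, and dynamin, the adaptor amphiphysin and synaptojanin recover the membrane. In the striatum these transcripts come mainly from the cell bodies of local projection neurons and interneurons, while the proteins in many of the terminals are made in cortex, thalamus and midbrain. The dissected samples also gave signal for marker genes of cortical and thalamic neurons, described below. In bulk tissue of this kind, fewer cells of a type and less RNA per cell cannot be told apart.

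The 12 arrays correlated with each other at 0.983 to 0.995. Mean correlation was lowest for mouse wt_3m_467 (0.987) and mouse Q92_18m_66 (0.988). The tissue carried its defining markers: Ppp1r1b (DARPP-32) read 10.07 to 11.02 and Penk (preproenkephalin) 10.37 to 11.70 as group means. Penk was lower in Q92 than in wild-type mice at 18 months (10.37 ± 0.20 against 11.63 ± 0.06, SD, n = 3, limma adjusted p = 0.00113). Of 3 control probe sets for 18S ribosomal RNA, the 5′ one read 5.64 to 5.75 in wild-type and 6.21 to 8.31 in Q92 mice at 18 months, and 5.28 to 11.2 in the young mice. On the other two the old groups overlapped, at 5.07 to 5.39 against 5.21 to 6.41 for the middle one and 6.53 to 6.65 against 6.51 to 8.01 for the 3′ one.

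The promoters of the members nearest to a call, Syt2, Unc13c, Syp and Synpr, and that of Syn1, the only one to hold a cyclic AMP response element or part of an RE1 site, are shown first. They are the 250 bases before the gene start listed by RefSeq (GRCm38.p6), at chr1:134646362-134646611 on the plus strand for Syt2, chr9:73969038-73969287 on the minus strand for Unc13c, chrX:7638330-7638579 on the plus strand for Syp, chr14:13284530-13284779 on the plus strand for Synpr and chrX:20920919-20921168 on the minus strand for Syn1. Syt2 and Synpr had 2 listed promoters each, of which the first listed was taken. Each sequence is written 5′ to 3′ on the strand of the gene, and capitals mark the motif matches on either strand.
Syt2: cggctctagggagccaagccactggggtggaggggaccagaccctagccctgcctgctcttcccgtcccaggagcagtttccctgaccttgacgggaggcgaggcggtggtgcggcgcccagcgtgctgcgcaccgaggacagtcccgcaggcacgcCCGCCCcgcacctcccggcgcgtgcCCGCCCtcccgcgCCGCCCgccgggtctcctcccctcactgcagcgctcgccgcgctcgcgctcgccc
Unc13c: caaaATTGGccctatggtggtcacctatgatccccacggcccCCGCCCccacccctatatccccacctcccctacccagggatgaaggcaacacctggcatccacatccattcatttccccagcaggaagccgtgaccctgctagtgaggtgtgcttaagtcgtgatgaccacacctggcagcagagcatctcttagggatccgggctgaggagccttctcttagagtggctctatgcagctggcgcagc
Syp: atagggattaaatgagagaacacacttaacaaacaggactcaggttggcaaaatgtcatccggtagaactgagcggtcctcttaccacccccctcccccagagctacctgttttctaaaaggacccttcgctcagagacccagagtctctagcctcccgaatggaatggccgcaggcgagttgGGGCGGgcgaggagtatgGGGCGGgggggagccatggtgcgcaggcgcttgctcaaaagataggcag
Synpr: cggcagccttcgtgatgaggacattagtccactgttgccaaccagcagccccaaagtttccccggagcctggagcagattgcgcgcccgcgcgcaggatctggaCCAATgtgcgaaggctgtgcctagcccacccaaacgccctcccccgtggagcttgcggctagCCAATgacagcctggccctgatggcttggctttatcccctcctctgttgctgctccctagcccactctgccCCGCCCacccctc
Syn1: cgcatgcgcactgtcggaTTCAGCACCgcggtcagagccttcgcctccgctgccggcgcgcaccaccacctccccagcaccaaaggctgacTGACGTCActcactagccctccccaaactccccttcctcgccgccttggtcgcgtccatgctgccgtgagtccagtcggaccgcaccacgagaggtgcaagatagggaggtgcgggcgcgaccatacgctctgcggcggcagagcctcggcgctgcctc
The capitals are 3 GC boxes in Syt2, 1 GC box and 1 CCAAT box in Unc13c, 2 GC boxes in Syp, and 1 GC box and 2 CCAAT boxes in Synpr. In Syn1 they are 1 cyclic AMP response element and the left part of an RE1 element, the site of the neuronal repressor REST. RefSeq promoters were listed for 26 of the 33 members, and the same 250 bases of 27025 promoters served as background. The GC box (GGGCGG, or CCGCCC on the other strand) was present in 17 of 26 members (65.4%) and in 32.9% of all promoters, in windows whose median GC content was 61.2% for members and 52% for all. The CCAAT box (CCAAT or ATTGG) was present in 6 members (23.1% against 34.5%) and TATAAA or TTTATA in Sv2b only (3.85% against 13%). TGACGTCA, which is its own reverse complement, and TTCAGCACC (or GGTGCTGAA) were each present in Syn1 only (3.85% of members, against 1.62% and 0.285% of all promoters). No motif contains another. These are matches of letters and were not set against any binding measurement.

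No release gene passed a limma adjusted p of 0.05, taken over 45037 probe sets, in any of the 5 comparisons: Q92 against wild type at 18 and at 3 months, how that difference changed between the ages, and 18 against 3 months in each genotype. The 4 group means lay within 0.2 of each other for 12 members and within 0.5 for 28. At 18 months 21 of 33 (63.6%) had a higher mean in Q92 mice, against 49.6% of all genes. The median log2 difference was 0.07 (range -0.59 to 0.49), against -0.00 over all genes. Of all 18193 genes, 0.077% passed in this comparison. The 18-month median was -0.01 without mouse Q92_18m_25, 0.01 without mouse Q92_18m_11, 0.02 without mouse wt_18m_12 and 0.13 without mouse Q92_18m_66. It was 0.06 with the 5′ 18S signal as a covariate, and 0.16 under a block for each exact age. The latter rests on the 3 old mice of 596 days, Q92_18m_11 alone against wt_18m_12 and wt_18m_17. At 3 months 16 members (48.5%) were higher, against 42.6% of all genes. The median was -0.01 (range -0.26 to 0.26) against -0.02 over all genes, of which 0.0165% passed. For the change of the genotype difference from 3 to 18 months, 20 members (60.6%) were higher (median 0.04, range -0.82 to 0.59). Over all genes 54.3% were higher (median 0.02), and 0% passed.

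**Figure D1:**
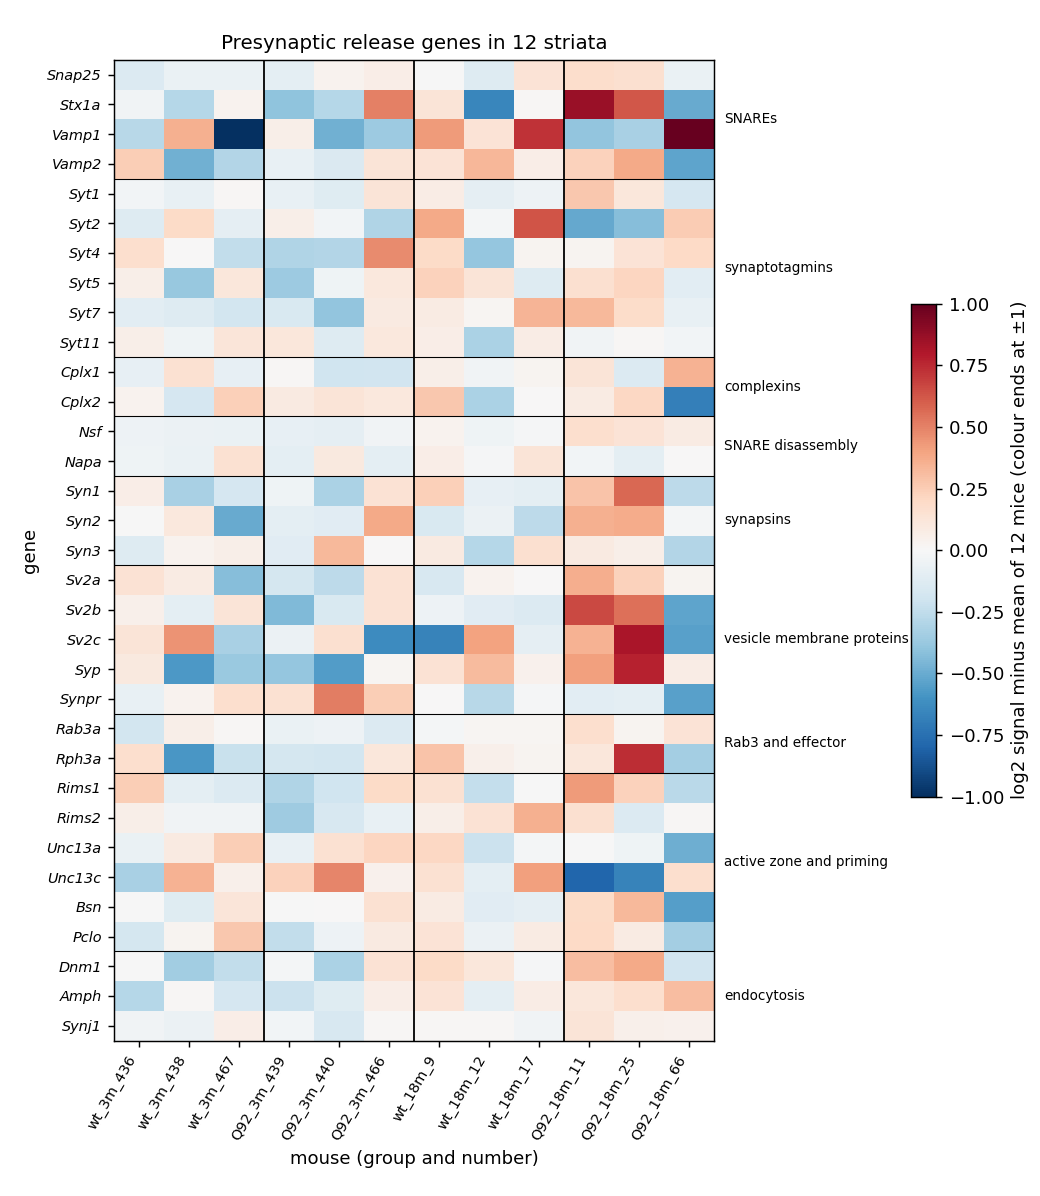
Log2 signal of the 33 release genes (rows, grouped by role) in each of the 12 mice (columns, grouped by genotype and age), minus the gene's mean over the 12 mice. Red is above and blue below that mean, and colours end at ±1. Most rows stay pale, and the old Q92 mice 11 and 25 have many red cells where mouse 66 has blue ones.

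With age, 21 members (63.6%) had a higher mean at 18 than at 3 months in wild-type mice (median 0.03, range -0.20 to 0.76). Over all genes 47.3% were higher there (median -0.01), and 0.0715% passed. In Q92 mice 24 members (72.7%) were higher (median 0.19, range -0.68 to 0.73). Over all genes 51.9% were higher there (median 0.01), and 0.253% passed. The wild-type and Q92 mice at each age enter several of these comparisons, so the counts are not independent of each other. The smallest limma adjusted p of a member was 0.512 at 18 months, 1.00 at 3 months, 0.946 for the change with age, 0.470 for age in wild type and 0.160 for age in Q92. The 33 genes have 84 probe sets of their own, and the smallest adjusted p among them was 0.0986. Of the 26 members with more than 1 probe set, 13 had the same sign on all of them at 18 months. This count includes dim probe sets, with means down to 2.67, where the median signal of an array was 4.96 to 5.01.

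Unadjusted, p was under 0.05 for 3 members at 18 months (1 higher, 2 lower), where 8.03% of all genes had such a p, and for 0 members at 3 months, where 2.27% had. It was under 0.05 for 1 member for the change with age (5.8% of all genes), 1 for age in wild type (11%) and 6 for age in Q92 (4 higher, 2 lower, against 12.4%). The 3 mice of one group lay entirely above or below those of the other for 4 members at 18 months (Nsf, Syn2, Rab3a and Synj1, all higher in Q92), where this was so for 14% of all genes, and for 1 member at 3 months (Rims2, lower, against 6.64%). They did so for 3 members with age in wild type (Syt7, Nsf and Rims2, higher in old mice, against 18.6%). With age in Q92 there were 6 (Nsf, Syp, Rab3a, Amph and Synj1 higher, Synpr lower), against 17.5%.

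The precision differed between members. The median standard error of a member's log2 difference was 0.16, against 0.12 over all genes. The 95% confidence interval stayed within 1.5-fold in either direction for 26 of 33 members at 3 months and for 21 at 18 months, against 92.3% and 87.0% of all genes. At 18 months the intervals that reached past 1.5-fold were those of Stx1a, Vamp1, Vamp2, Syt2, Syt4, Syn1, Syn2, Sv2a, Sv2b, Sv2c, Syp and Unc13c. For the other members a genotype difference above 1.5-fold lies outside the interval of the brightest probe set at that age. This does not hold for all their probe sets. A dimmer one of Cplx2 differed by 0.74 and a dimmer one of Rph3a by 0.71, both past 1.5-fold.

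**Figure D2:**
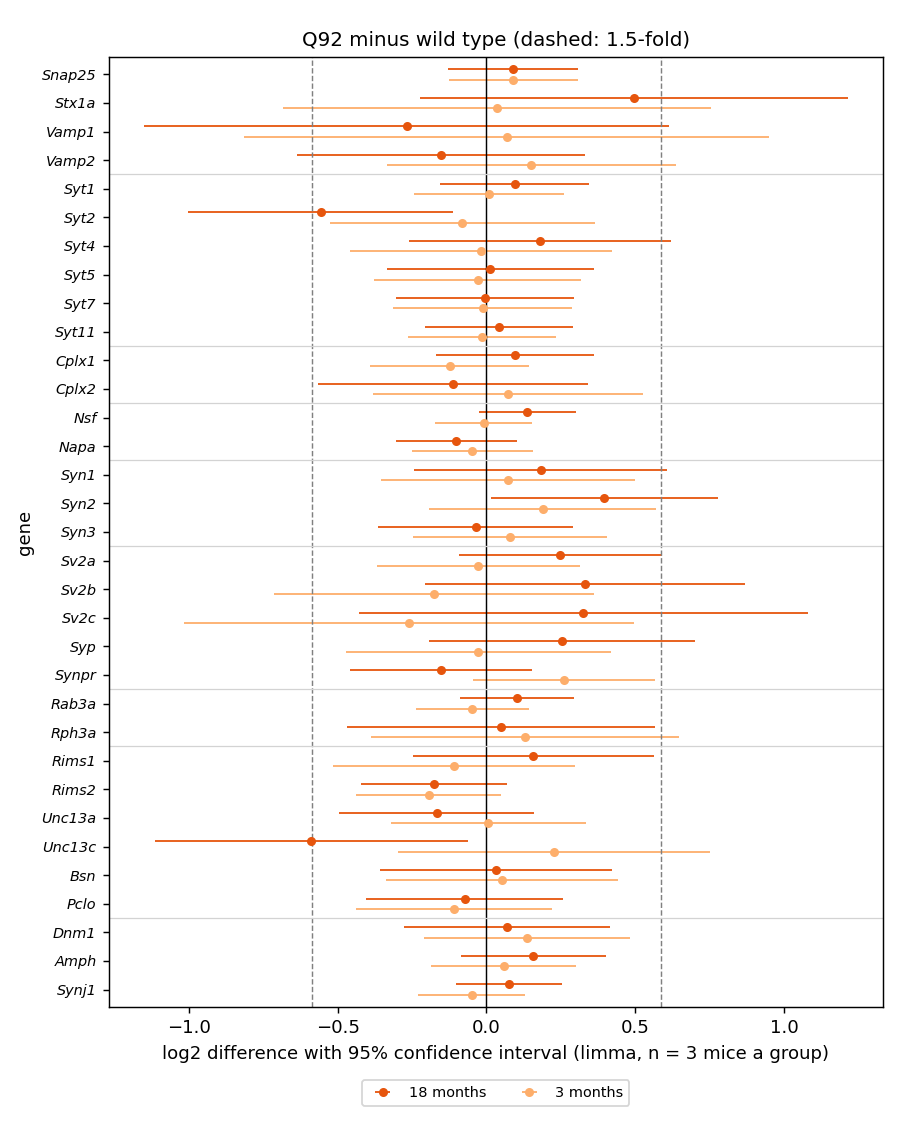
Log2 difference of Q92 minus wild type for each release gene at 18 months (dark orange) and at 3 months (light orange), with limma 95% confidence intervals and n = 3 mice a group. Dashed lines mark 1.5-fold, and Syt2 and Unc13c at 18 months lie farthest to the left, at -0.56 and -0.59.

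Among the SNARE genes, Snap25, which contributes a pair of helices to the fusion complex, varied least. It read 11.86, 11.94 and 11.93 in young wild-type mice, 11.90, 12.04 and 12.07 in young Q92 mice, 11.995, 11.87 and 12.14 in old wild-type mice and 12.18, 12.16 and 11.94 in old Q92 mice. The groups overlapped at both ages, and the genotype difference was 0.09 (SE 0.10) at 18 months and 0.09 (SE 0.10) at 3 months, with intervals from -0.13 to 0.31 for each.

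Stx1a, the plasma membrane syntaxin, read 9.80 and 9.56 in mice Q92_18m_11 and Q92_18m_25 but 8.44 in mouse Q92_18m_66, against 9.07, 8.29 and 8.96 in old wild-type mice. The old groups overlapped, and the difference of 0.49 (SE 0.33, limma adjusted p = 0.782) did not exceed the spread between mice. In young Q92 mice it read 8.54, 8.65 and 9.45, against 8.90, 8.66 and 8.98 in young wild-type mice. Vamp1 and Vamp2 encode synaptobrevins of the vesicle membrane. Vamp1 read 8.47, 9.11 and 7.68 in young wild-type mice and 9.17, 8.88 and 9.47 in old ones, an age difference of 0.76 (SE 0.41, adjusted p = 0.537). In Q92 mice it read 8.81, 8.27 and 8.38 at 3 months and 8.35, 8.42 and 9.95 at 18 months, where mouse Q92_18m_66 was the highest of all 12. Vamp2 differed by -0.15 between genotypes at 18 months (SE 0.22) and by 0.15 at 3 months (SE 0.22).

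Syt2, a fast calcium sensor known best from hindbrain and spinal synapses, was the synaptotagmin nearest to a genotype call. It read 6.399, 6.01 and 6.65 in old wild-type mice and 5.51, 5.60 and 6.28 in old Q92 mice, and 5.89, 6.21 and 5.93 against 6.08, 5.99 and 5.72 at 3 months. Mouse Q92_18m_66 lay within the wild-type range while the other 2 old Q92 mice were the lowest of the 12. The 18-month difference was -0.56 (SE 0.21, 95% interval -1.003 to -0.11, limma adjusted p = 0.512), and the 3-month difference was -0.08 (SE 0.21).

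The other 2 probe sets of Syt2 were dimmer, with means of 5.18 and 5.17 over the 12 mice. These levels are near the median signal of an array (4.96 to 5.01). On both of these probe sets the old groups did not overlap. The first read 5.56, 5.13 and 5.52 in old wild-type mice and 4.55, 4.80 and 4.60 in old Q92 mice (difference -0.75, SE 0.15, adjusted p = 0.130). The second read 5.91, 4.98 and 5.33 against 4.75, 4.49 and 4.41 (difference -0.86, SE 0.19, adjusted p = 0.185). On these 2 probe sets mouse Q92_18m_66 was as low as the other old Q92 mice, unlike on the brightest one. The age difference in Q92 mice was -0.68 (adjusted p = 0.113) and -0.85 (adjusted p = 0.118) on the dimmer probe sets but -0.14 on the brightest (adjusted p = 0.875).

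Syt1, the calcium sensor of fast release in forebrain, differed between genotypes by 0.10 at 18 months (SE 0.12) and 0.01 at 3 months (SE 0.12). Its group means were 11.86 ± 0.05 and 11.87 ± 0.13 in young wild-type and Q92 mice, and 11.87 ± 0.09 and 11.96 ± 0.22 in old ones. Syt7, a slower and more sensitive sensor, read 9.20, 9.18 and 9.12 in young wild-type mice and 9.39, 9.33 and 9.65 in old ones. These groups did not overlap, and the age difference was 0.29 (SE 0.14, adjusted p = 0.490). In Q92 mice it read 9.15, 8.91 and 9.40 at 3 months and 9.63, 9.49 and 9.23 at 18 months, an overlapping difference of 0.30 (SE 0.14, adjusted p = 0.479). Syt4, Syt5 and Syt11 had genotype differences between -0.03 and 0.18 at both ages, all with adjusted p of 0.907 or above.

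Complexins hold the assembled SNARE complex ready for the calcium signal. Cplx1 read 11.12, 11.35 and 11.12 in young wild-type mice, 11.21, 11.001 and 11.01 in young Q92 mice, 11.26, 11.17 and 11.23 in old wild-type mice and 11.33, 11.07 and 11.55 in old Q92 mice. All groups overlapped, with a genotype difference of -0.12 (SE 0.12, adjusted p = 1.00) at 3 months and 0.10 (SE 0.12) at 18 months. Cplx2 read 10.76, 10.89 and 9.99 in old Q92 mice, with mouse Q92_18m_66 the lowest of all 12, and 10.95, 10.36 and 10.68 in old wild-type mice. Its 3 probe sets did not share a sign at 18 months (-0.17 to 0.74, smallest adjusted p 0.725).

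Nsf, the ATPase that takes SNARE complexes apart, varied little between mice of a group, with a largest within-group SD of 0.04. It read 11.19, 11.18 and 11.17 in young wild-type mice, 11.16, 11.15 and 11.20 in young Q92 mice, 11.27, 11.19 and 11.22 in old wild-type mice and 11.41, 11.38 and 11.32 in old Q92 mice. All 3 old Q92 mice lay above the other 9 mice. The difference was small, at 0.14 (SE 0.08, 1.10-fold, limma adjusted p = 0.709) between genotypes at 18 months and 0.20 (SE 0.08, 1.15-fold, adjusted p = 0.367) with age in Q92 mice. On the mean of all 4 Nsf probe sets these differences were 0.09 and 0.11. The dimmer of these probe sets had means of 5.86 and 3.11 over the 12 mice. Napa, the alpha-SNAP adaptor that recruits Nsf, read 10.07 ± 0.07 in old wild-type and 9.97 ± 0.05 in old Q92 mice, a difference of -0.10 (SE 0.09).

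Synapsins coat vesicles and tether them in the reserve pool. Syn2 read 9.42, 9.51 and 9.30 in old wild-type mice and 9.93, 9.94 and 9.55 in old Q92 mice, and 9.56, 9.67 and 9.07 against 9.47, 9.46 and 9.94 at 3 months. The old groups did not overlap, mouse Q92_18m_66 being just above mouse wt_18m_12, and the young groups did. The 18-month difference was 0.39 (SE 0.18, 95% interval 0.01 to 0.78, adjusted p = 0.620). It had the same sign on 3 of the 6 Syn2 probe sets, and the mean of all 6 gave 0.11. The probe sets of opposite sign included the dimmest, with means of 3.91 and 2.67 over the 12 mice. They also included a brighter one, with a mean of 7.97. Syn1 read 9.96, 9.64 and 9.63 in old wild-type and 10.01, 10.31 and 9.46 in old Q92 mice, a difference of 0.18 (SE 0.20), and Syn3 differed by -0.04 (SE 0.15).

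Among the vesicle membrane proteins, the group means of a gene spanned 0.30 to 0.73 on the log2 scale. Sv2a, the vesicle glycoprotein bound by the antiepileptic levetiracetam, read 9.37, 9.56 and 9.53 in old wild-type mice and 9.89, 9.76 and 9.56 in old Q92 mice, and 9.67, 9.61 and 9.10 against 9.36, 9.27 and 9.68 at 3 months. The old groups met at mice wt_18m_12 and Q92_18m_66, with a difference of 0.25 (SE 0.16, adjusted p = 0.760). Its relative Sv2b read 10.03, 9.92 and 8.84 in old Q92 mice, the 2 highest and the lowest of all 12 values, and 9.31, 9.25 and 9.23 in old wild-type mice. At 3 months Sv2b read 9.42, 9.27 and 9.50 in wild-type and 8.93, 9.21 and 9.51 in Q92 mice. The 18-month difference of 0.33 (SE 0.25, adjusted p = 0.816) was 0.71 (adjusted p = 0.145) without mouse Q92_18m_66. Sv2c, the third family member, had intervals that reached past 1.5-fold in every comparison and group means between 4.24 and 4.62. These means lie below the median signal of every array.

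Syp and Synpr encode synaptophysin and synaptoporin, related membrane-spanning proteins of the vesicle. By the brightest probe set of each gene, both stood nearest to a call with age in Q92 mice. Syp read 9.01, 8.83 and 9.41 in young and 9.81, 10.17 and 9.47 in old Q92 mice, so that every old mouse lay above every young one. The difference was 0.73 (SE 0.21, 1.66-fold, 95% interval 0.28 to 1.17, limma adjusted p = 0.204). In wild-type mice Syp read 9.49, 8.82 and 9.02 at 3 months and 9.54, 9.71 and 9.43 at 18 months, which overlapped, with a difference of 0.45 (SE 0.21, adjusted p = 0.470). The other Syp probe set, whose group means were 4.04 to 4.49, had the opposite sign in both genotypes (-0.45 in Q92 and -0.19 in wild-type mice), and the mean of both probe sets gave 0.14 in Q92 mice.

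Synpr went the other way with age. It read 9.89, 10.25 and 9.98 in young Q92 mice and 9.63, 9.64 and 9.20 in old ones, with no overlap, against 9.67, 9.77 and 9.91 in young and 9.74, 9.46 and 9.73 in old wild-type mice, which overlapped. The age difference was -0.55 in Q92 mice (SE 0.14, 1.47-fold, 95% interval -0.86 to -0.25, adjusted p = 0.160) and -0.14 in wild-type mice (SE 0.14, adjusted p = 0.746). The genotype difference was 0.26 at 3 months (SE 0.14, adjusted p = 1.00) and -0.15 at 18 months (SE 0.14, adjusted p = 0.868), and its change with age was -0.41 (SE 0.20, adjusted p = 0.946). Without mouse Q92_18m_66 the age difference in Q92 mice was -0.40 (adjusted p = 0.343), and the 18-month genotype difference was -0.01.

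**Figure D3:**
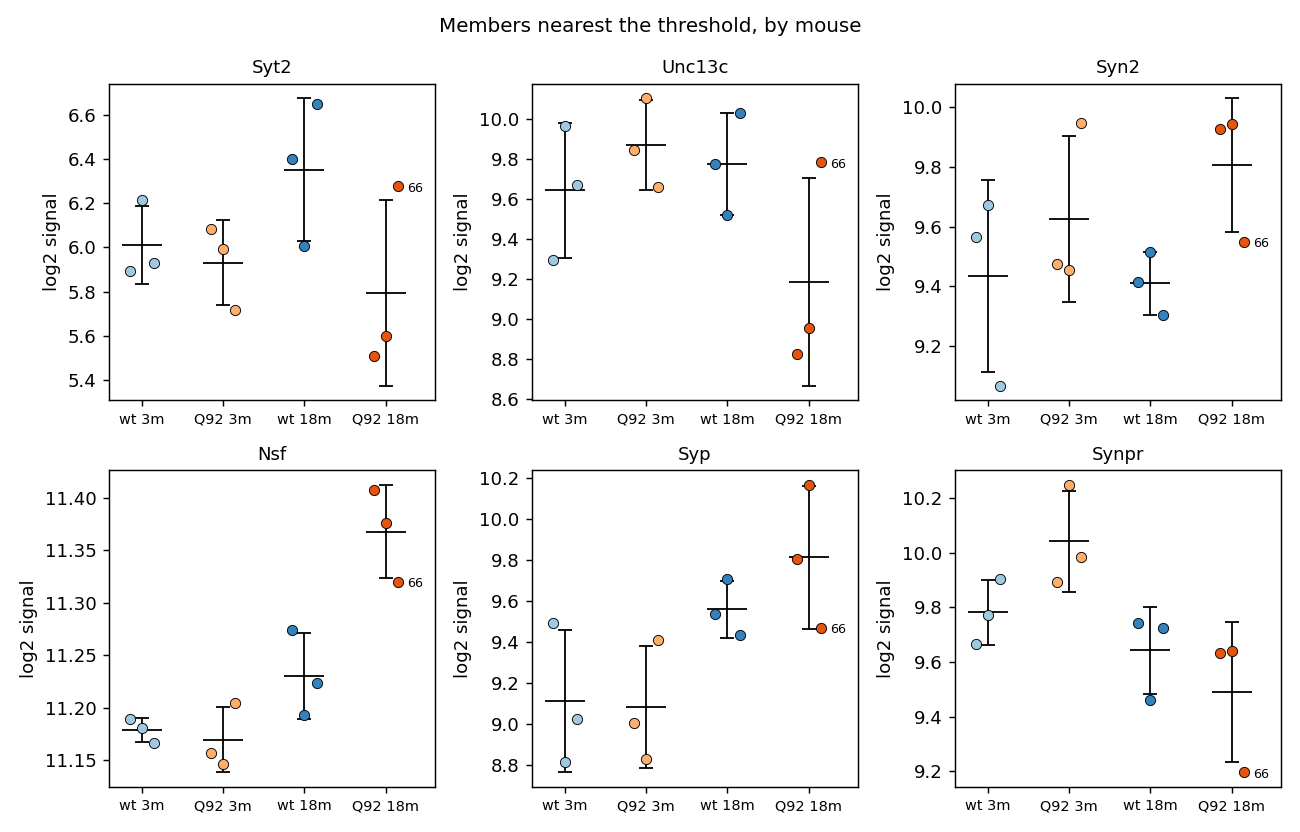
Log2 signal of 6 release genes in each mouse, by genotype and age (3 and 18 months), with the group mean and SD as horizontal and vertical lines. Axes do not start at 0 and differ between panels. Mouse 66 of the old Q92 group is labelled, and it lies apart from the other 2 old Q92 mice for Syt2, Unc13c, Syn2 and Synpr.

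Rab3a, the vesicle GTPase that docks vesicles through Rim and rabphilin, read 11.24, 11.28 and 11.28 in old wild-type mice and 11.43, 11.29 and 11.39 in old Q92 mice. The old groups did not overlap, though mouse Q92_18m_25 lay just above the wild-type mice, and the difference was 0.10 (SE 0.09, adjusted p = 0.849). At 3 months it read 11.07, 11.31 and 11.27 in wild-type and 11.19, 11.20 and 11.12 in Q92 mice, so the old Q92 mice also lay above the young ones (difference 0.20, SE 0.09, adjusted p = 0.455). Rph3a, rabphilin, read 9.20, 9.82 and 8.75 in old Q92 mice and 9.38, 9.14 and 9.11 in old wild-type mice, a difference of 0.05 (SE 0.24). Its other, dimmer probe set gave 0.71 (SE 0.37, adjusted p = 0.687) at 18 months and 0.53 (SE 0.37, adjusted p = 1.00) at 3 months, with overlapping groups at both ages.

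At the active zone, Unc13c, a Munc13 known best from cerebellum, had the largest genotype difference of the set in absolute size. It read 9.78, 9.52 and 10.03 in old wild-type mice and 8.82, 8.95 and 9.78 in old Q92 mice, against 9.30, 9.97 and 9.67 in young wild-type and 9.85, 10.11 and 9.66 in young Q92 mice. Mouse Q92_18m_66 lay among the wild-type mice, and the other 2 old Q92 mice were the lowest of the 12. The 18-month difference was -0.59 (SE 0.24, 95% interval -1.11 to -0.06, adjusted p = 0.573), the 3-month difference 0.23 (SE 0.24, adjusted p = 1.00), and the change between them -0.82 (SE 0.34, adjusted p = 0.946). With age in Q92 mice Unc13c differed by -0.68 (SE 0.24, adjusted p = 0.325).

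Another bright Unc13c probe set read 9.56, 9.75 and 9.40 in young Q92 mice and 8.55, 8.58 and 9.07 in old ones. These groups did not overlap, and the difference of -0.84 had the smallest adjusted p of all 84 probe sets (0.0986). At 18 months this probe set read 9.16, 9.01 and 9.48 in wild-type mice, so mouse Q92_18m_66 lay inside their range there too, and the genotype difference was -0.49. Without mouse Q92_18m_66 the 18-month difference of the first probe set was -0.89 (adjusted p = 0.183). Unc13a, the main Munc13 of forebrain synapses, differed by -0.17 at 18 months (SE 0.15, adjusted p = 0.864) and 0.01 at 3 months (SE 0.15).

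Rims2, a Rab3-binding scaffold, read 8.76, 8.67 and 8.67 in young wild-type mice and 8.35, 8.54 and 8.63 in young Q92 mice, the only member whose young groups did not overlap. The difference was -0.19 (SE 0.11, adjusted p = 1.00). This 3-month difference had the same sign on 2 of the 5 Rims2 probe sets, which ran from -0.19 to 0.14. The probe sets of opposite sign had means over the 12 mice of 8.36, 4.48 and 2.67, and the 0.14 came from the one at 4.48. On the brightest one, old wild-type mice read 8.77, 8.85 and 9.06, above all young ones (difference 0.19, SE 0.11, adjusted p = 0.575). Old Q92 mice read 8.87, 8.57 and 8.71 on it. At 18 months 4 of the 5 probe sets had a lower mean in Q92 mice (range -0.23 to 0.19, smallest limma adjusted p 0.659). The exception was the one at 4.48. On the second brightest, old Q92 mice (8.38 to 8.49) lay below old wild-type mice (8.53 to 8.70). On the third they did so narrowly (8.19 to 8.368 against 8.373 to 8.75). Rims1 differed by 0.16 at 18 months (SE 0.19), and the giant scaffolds Bsn (bassoon) and Pclo (piccolo) by 0.03 (SE 0.18) and -0.07 (SE 0.15). Of the 2 dimmer Pclo probe sets, one gave 0.52 at 18 months without overlap of the old groups (SE 0.24, adjusted p = 0.635) and the other 0.07 (SE 0.13). Bsn read 9.18, 9.32 and 8.44 in old Q92 mice, with mouse Q92_18m_66 the lowest of all 12.

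Of the genes that recover vesicle membrane, Dnm1 encodes the neuronal dynamin that cuts vesicles from the membrane. It read 10.81, 10.47 and 10.57 in young and 11.01, 10.93 and 10.81 in old wild-type mice, which met at 10.81, and the age difference was 0.30 (SE 0.16, adjusted p = 0.537). In Q92 mice it read 10.80, 10.51 and 10.96 at 3 months and 11.13, 11.20 and 10.63 at 18 months. Amph, the adaptor amphiphysin that brings dynamin to the vesicle neck, read 9.01, 9.11 and 9.30 in young and 9.34, 9.40 and 9.54 in old Q92 mice without overlap (difference 0.29, SE 0.11, adjusted p = 0.386). In wild-type mice it read 8.94, 9.24 and 9.06 at 3 months and 9.37, 9.13 and 9.31 at 18 months (difference 0.19, SE 0.11, adjusted p = 0.579). Synj1, the lipid phosphatase that strips the clathrin coat, read 10.94, 10.94 and 10.89 in old wild-type and 11.05, 10.97 and 10.97 in old Q92 mice. These did not overlap, with a difference of 0.08 (SE 0.08, adjusted p = 0.900).

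**Figure D4:**
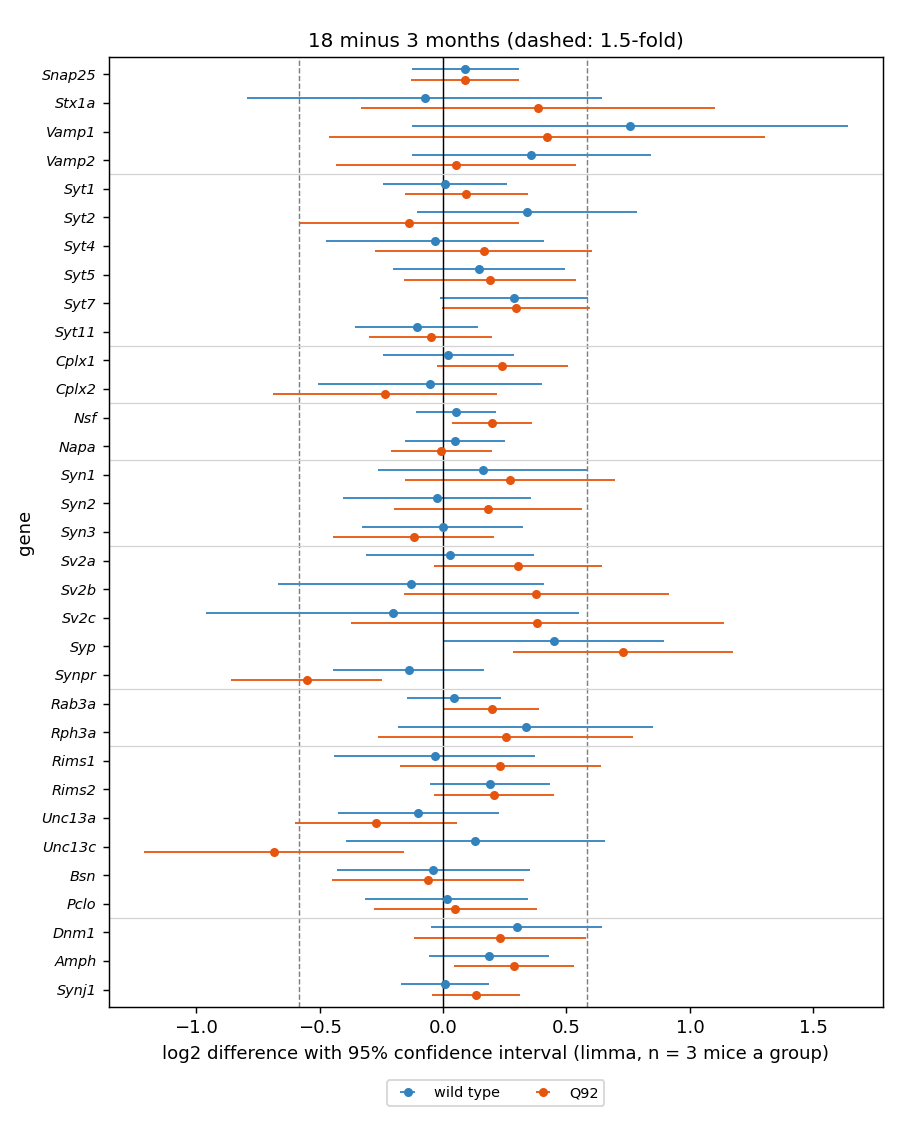
Log2 difference of 18 minus 3 months for each release gene in wild-type (blue) and Q92 mice (orange), with limma 95% confidence intervals and n = 3 mice a group. Dashed lines mark 1.5-fold. The intervals of Nsf, Syp, Synpr, Rab3a, Unc13c and Amph in Q92 mice and of Syp in wild-type mice exclude 0, but no member passed the adjusted threshold.

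The members were spread more widely among the old Q92 mice than within any other group. The median within-group SD of the members was 0.26 in old Q92 mice, against 0.14 in old wild-type, 0.17 in young wild-type and 0.19 in young Q92 mice, while over all genes it was 0.13 in old Q92 and 0.11 to 0.13 in the other groups. Mouse Q92_18m_66 lay below both other old Q92 mice for 23 of 33 members, above both for 7 and between them for 3. Mouse Q92_18m_11 was the highest of the 12 mice for 9 members and for 7.50% of all genes, and mouse Q92_18m_25 for 7 members and 6.30% of all genes. Mouse Q92_18m_66 was the lowest of the 12 for 9 members and for 10.7% of all genes. It was also the highest for 3 members and for 16.5% of all genes, the largest such share of the 12 mice.

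A split between mouse Q92_18m_66 and the other old Q92 mice also appeared in markers of neighbouring tissue, projection neurons, interneurons, microglia and astrocytes. Relative to the mean of the 12 mice, 14 cortical excitatory neuron markers averaged 0.70 and 0.68 in mice Q92_18m_11 and Q92_18m_25 but -0.47 in mouse Q92_18m_66, against -0.14 to 0.08 in old wild-type mice. Slc17a7, the vesicular glutamate transporter of cortical neurons, read 7.35 and 7.38 in mice 11 and 25 and 5.43 in mouse 66. Thalamic markers (12 genes) ran the opposite way, at -0.71 and -0.49 against 0.89. They also varied widely in the other groups, from -0.41 to 0.61 in old wild-type, -0.49 to 0.32 in young wild-type and -0.45 to 0.31 in young Q92 mice. Slc17a6, the transporter of thalamic neurons, read 5.75 and 5.25 against 9.09, with 6.48 to 8.62 in old wild-type mice. Projection neuron markers (15 genes) averaged -0.54 and -0.34 in mice 11 and 25 and -1.07 in mouse 66, against 0.10 to 0.24 in old wild-type mice. Striatal interneuron markers averaged -0.23 and -0.30 in mice 11 and 25 against 0.14 in mouse 66, with -0.06 to 0.28 in old wild-type mice. Microglial markers averaged -0.13 and -0.18 against 0.50, and astrocyte markers -0.20 and -0.09 against 0.23. Oligodendrocyte markers averaged -0.29 and -0.05 against 0.06. On choroid plexus and vascular markers mouse 66 lay between mice 11 and 25. The 33 release genes averaged 0.15 and 0.17 in mice Q92_18m_11 and Q92_18m_25 and -0.11 in mouse Q92_18m_66.

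**Figure D5:**
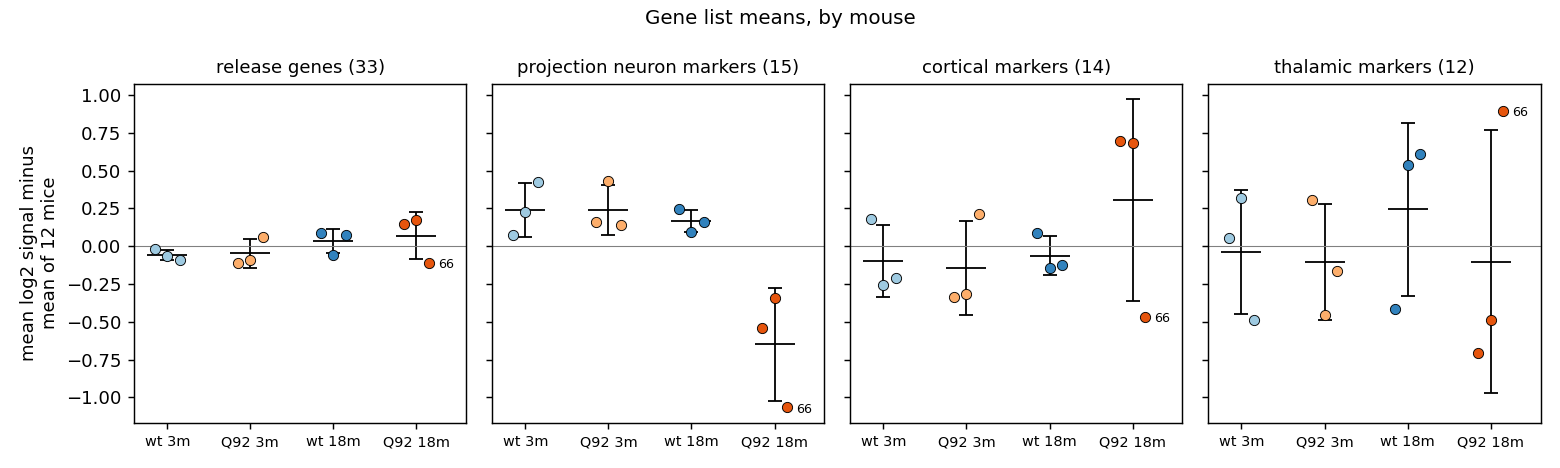
Mean log2 signal of 4 gene lists in each mouse, minus the mean over the 12 mice, by genotype and age, with the group mean and SD. The 33 release genes vary between -0.11 and 0.17. In the old Q92 group mouse 66 is low for release genes, projection neuron markers and cortical markers and high for thalamic markers.

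Cortical markers were higher in Q92 mice at 18 months for 13 of 14 genes (median 0.27) and thalamic markers for 1 of 12 (median -0.41), with 0 past the threshold in either list. With the means of both marker lists as covariates, the median member difference was -0.05 at 18 months, against 0.07 without them, and -0.01 with age in Q92 mice, against 0.19. With these covariates the 18-month difference was 0.10 for Stx1a, 0.03 for Sv2b, -0.35 for Syt2 and -0.30 for Unc13c. Nsf differed by 0.11 and Rab3a by 0.14. Whether cortical or thalamic tissue in the dissected samples sets these values was not tested.

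Markers of striatal projection neurons, the cells that make up most of this tissue, were lower in Q92 mice at 18 months for all 15 measured genes (median -0.81, 1 past the threshold) and near 0 at 3 months (median -0.02). The release genes had medians of 0.07 and -0.01 in the same 2 comparisons, and the difference between the lists was not tested. Slc32a1, the vesicular GABA transporter used by projection neurons and interneurons, read 9.83, 9.71 and 9.82 in old wild-type mice and 9.50, 9.66 and 9.69 in old Q92 mice. These did not overlap, and the difference was -0.17 (SE 0.09, adjusted p = 0.704).

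The other genes of the presynaptic pathway were taken from a list of 143, of which 130 were measured. None of them passed in any of the 5 comparisons. At 18 months 70 had a higher and 60 a lower mean in Q92 mice (median 0.01), at 3 months 60 were higher (median -0.02), and with age 76 were higher in wild-type (median 0.04) and 82 in Q92 mice (median 0.06). An unadjusted p under 0.05 was reached at 18 months by 14 of the 130 (10.8%, against 8.03% of all genes), at 3 months by 1 (0.769% against 2.27%) and for the change with age by 8 (6.15% against 5.8%). With age it was reached by 11 in wild type (8.46% against 11%) and by 29 in Q92 mice (22.3% against 12.4%), of which 22 were higher and 7 lower in old mice.

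Doc2a, a calcium sensor of asynchronous and spontaneous release, was nearest at 18 months. It read 6.11, 5.87 and 5.97 in old wild-type and 6.88, 6.54 and 6.57 in old Q92 mice, without overlap, and mouse Q92_18m_66 did not stand apart. The difference was 0.68 (SE 0.14, limma adjusted p = 0.130), with -0.32 (SE 0.14, adjusted p = 1.00) at 3 months and a change with age of 0.99 (SE 0.19, adjusted p = 0.615). Next came Cacnb2, a calcium channel subunit (-0.51, adjusted p = 0.137), and Atp6v1a, a subunit of the proton pump that fills vesicles (0.45, adjusted p = 0.216), each with old groups that did not overlap.

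At 3 months the nearest after Doc2a were the endocytic adaptor subunit Ap2a2 (-0.20) and the adhesion phosphatase Ptprd (0.25), both at an adjusted p of 1.00. For the change with age, Atp6v1a (0.47, adjusted p = 0.938) and Slc18a3, the acetylcholine transporter (-0.77, adjusted p = 0.946), followed Doc2a. With age in wild-type mice they were Stxbp3, a Munc18 relative (0.41, adjusted p = 0.301), the priming factor Cadps (0.41, adjusted p = 0.316) and the endophilin relative Sh3glb1 (0.32, adjusted p = 0.325). With age in Q92 mice they were Cacna2d3, an auxiliary calcium channel subunit (-0.69, adjusted p = 0.0769), Doc2a (0.65, adjusted p = 0.0956) and the endocytosis factor Fcho1 (-0.57, adjusted p = 0.0956).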

How the data were processed

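Values are log2 signals as the authors deposited them, 1 per probe set and array. The submitters' processing notes name RMA and the affy package, without versions. RMA subtracts background, brings all arrays to the same distribution and combines the probes of a probe set, so levels are relative within an array. A joint run of the 12 arrays was not given in the sources used here. There is no read depth, and precision is limited by the number of arrays.

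A mean per group was fitted to 12 arrays with limma 3.58.1 in R 4.3.3 (8 residual and 4.50 prior degrees of freedom). P-values of 5 contrasts were adjusted by Benjamini-Hochberg over 45037 probe sets, without 64 controls, at a threshold of 0.05. Of the probe sets, 932 were paired with several genes and 9160 had no name. The test was checked on simulated data, with added changes larger than any member difference given here and without the most variable probe sets. That check does not cover changes of the size seen in the members. Per-mouse values were given for the 5 members with the smallest p in each contrast, and pathway genes were named as the 3 with the smallest p. Snap25, Stx1a, Cplx2, Syn1, Rab3a, Rph3a, Bsn, Synj1, Slc32a1 and further probe sets were described after their values were seen. The members and lists were chosen with earlier results of these data known. Alternatives were other normalisations, filters, priors, weights, covariates, probe set rules and left-out arrays.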

Additional observations from a re-analysis of the deposited data

Results flagged for a closer look

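Synpr, synaptoporin, had a genotype difference of opposite sign at the 2 ages. Every Q92 mouse at 3 months lay above the wild-type mean (difference 0.26) and every Q92 mouse at 18 months lay below the wild-type mean (difference -0.15). The size of the 18-month difference rests on mouse Q92_18m_66, at 9.20, since the other 2 old Q92 mice read 9.63 and 9.64 against a wild-type mean of 9.643, and without mouse Q92_18m_66 the difference was -0.01. The change of the difference was -0.413 (SE 0.20, limma adjusted p = 0.946) and did not pass.

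Rab3a, the vesicle GTPase, showed the reverse order, with every Q92 mouse below the wild-type mean at 3 months (difference -0.05) and above it at 18 months (difference 0.10). The young wild-type mice, at 11.07 to 11.31, spanned the young Q92 mice, at 11.12 to 11.20. The change was 0.151 (SE 0.12, adjusted p = 0.95) and did not pass. How many of all genes change sides in this way was not counted.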

How the results depend on the processing

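The number of members past the threshold was 0 in every setting run (24 settings for each genotype comparison, 22 for the change with age, and 23 for each age comparison), and the smallest adjusted p were 0.0847 for Syt2 at 18 months on the mean of all its probe sets, 0.0949 for Sv2b with age in Q92 mice without mouse Q92_18m_66, 0.356, 0.386 and 0.944 in the other comparisons. The median member difference moved by more than 0.101, the SD between mice, with cortical and thalamic markers as covariates: to -0.0514 at 18 months (0.068 otherwise) and to -0.0131 with age in Q92 mice (0.189 otherwise). Over all settings it ran from -0.05 to 0.16 at 18 months, -0.03 to 0.06 at 3 months, -0.03 to 0.14 for the change, 0.01 to 0.10 with age in wild type and -0.01 to 0.21 in Q92. Member differences, none of them past the threshold, changed sign in 54 of 792, 72 of 792, 76 of 726, 65 of 759 and 34 of 759 values. The 5′ 18S covariate was chosen after seeing the data. No replicate number is shared between groups, so age in days was the only block across genotypes; it was run for the genotype comparisons only and left 4 residual degrees of freedom. With 3 mice a group, a difference of 1.69-fold (Vamp1 with age in wild type) did not pass, so differences of that size could be missed for the wider members.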
